A study of Mus musculus with 49 samples.

Results

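The genes of DNA replication and mitosis were examined as 57 members, of which 30 act in S phase and 27 in mitosis. They were chosen by name, from the core machinery of each process, and all 57 were found among the 38253 Ensembl genes of the expression table. The table covered 49 mouse samples in 10 groups. All mice were female C57BL/6J, aged 6 to 12 weeks and labelled wild type. By the study's account every sample came from a mouse of its own, over repeated experiments. The labels do not say which samples shared an experiment, so that batch was not tested. Of the 30 normal samples, sorted from lineage-depleted bone marrow, 5 were long-term haematopoietic stem cells (LT-HSC, Sca-1+ c-Kit+ CD150+ CD34-/lo) and 5 were short-term stem cells (ST-HSC, Sca-1+ c-Kit+ CD150+ CD34+). Another 6 were multipotent progenitors (MPP, Sca-1+ c-Kit+ CD150- CD34+), 5 were common myeloid progenitors (CMP) and 5 were granulocyte macrophage progenitors (GMP), both without Sca-1 and CD150 and with c-Kit and CD34, of which CMP were low for FcγR and GMP positive. The last 4 were megakaryocyte-erythrocyte progenitors (MEP), whose gate was not given in the methods. The 19 leukaemias were started by retroviral transfer of the MLL-AF9 (MA9) fusion, with green fluorescent protein (GFP) on the same transcript, into a normal cell type, and the cells were transplanted at once into sublethally irradiated mice. They were 3 STHSC:MA9, 6 MPP:MA9, 4 CMP:MA9 and 6 GMP:MA9 leukaemias, named for the cell that received the fusion. As a model they carry a viral promoter that drives the fusion, and they were collected as bulk GFP+ cells of the recipient spleen, whereas the labels give bone marrow for all samples. Recipients were taken when ill, some time after transplantation, so they were older at collection than at transplantation. Their age at collection was not given by sample, and its part in the comparisons with normal cells was not tested.

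DNA replication begins when the origin recognition complex, Cdc6 and Cdt1 load the Mcm2-7 helicase onto DNA. Cdc45, the GINS complex and Mcm10 then activate the helicase, and DNA polymerases, the sliding clamp Pcna and enzymes of nucleotide synthesis copy the strands. Mitosis is driven by Cdk1 with cyclin B, by the Polo and Aurora kinases and by motor and checkpoint proteins of the spindle. The genes of S phase are classically bound by E2F factors and those of mitosis by complexes that read the cell cycle homology region (CHR) and the CCAAT box. In bone marrow, long-term stem cells are known to divide rarely and committed progenitors to divide often.

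FPKM, the fragments per length of transcript and per total of mapped fragments, is scaled by length and so can be compared between genes. Summed FPKM per library lay between 694414 and 955433, and the genes above 0 numbered between 15282 and 17852. The smallest steps between FPKM values gave a relative depth between 0.490 and 1.53 of the median library. The mitochondrial share was between 12.5% and 36.7% of summed FPKM. Mpo, Elane and the other 5 genes of a GMP marker list summed to between 17035 and 25620 FPKM in GMP. They summed to no more than 6180 in any other normal sample. The 3 genes Hoxa9, Meis1 and Itgam summed to between 229 and 685 in the leukaemias against up to 268 in normal cells, with overlap. Itgam was the largest of the 3 there, with leukaemia means of 219 to 318 FPKM against 62.8 or less in normal groups. Meis1 means were 46.2 to 59.9 in the leukaemias, 73.2, 112 and 82.1 in LT-HSC, ST-HSC and MPP, and 52.4 or less in the other normal groups. Hoxa9 means were 22.4 to 28.9 in the leukaemias, 22.8 in MPP and 12.3 or less in the other normal groups. An MEP list of 5 genes summed to between 2865 and 3365 FPKM in MEP but reached 2893 in LT-HSC and 2807 in CMP. RNA of mature granulocytes stood out in 4 stem cell libraries: S100a8 was at 20264.6 and 10324.5 FPKM in LT-HSC replicates 4 and 5 and at 12625.5 and 2200.8 in ST-HSC replicates 4 and 5, against 6.49 to 352 in the other 6. The same 4 libraries held RNA of red cells. A list of 6 erythroid genes, none of them at 0 in every sample of a normal group, summed to 51440 and 28062 FPKM in LT-HSC replicates 4 and 5, to 27770 and 4381 in ST-HSC replicates 4 and 5, to 4335 in ST-HSC replicate 2, to no more than 963 in the other 5 stem cell samples and to no more than 1997 in any other normal sample. A list of 6 B cell genes summed to between 36.9 and 150 FPKM in the 4 libraries, between 16.6 and 26.4 in the other 6 stem cell samples and up to 172 in MEP. Comparisons that use these libraries are given with and without them. In such bulk RNA, fewer cycling cells and less RNA per cycling cell cannot be told apart.

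RefSeq windows of 300 bases around the start site, from 250 before to 50 after it, were at hand for 24 of the 30 S-phase genes and 22 of the 27 mitotic genes. The E2F letters TTTNNCGC, on either strand, were in 12 of the 24 S-phase windows (50%), in 1 of the 22 mitotic windows (4.55%) and in 5.93% of the windows of all 27025 genes. The CHR letters TTTGAA were in 3 S-phase windows (12.5%), in 15 mitotic windows (68.2%) and in 20.2% of all. The CCAAT letters were in 15 S-phase windows (62.5%), 19 mitotic windows (86.4%) and 41.1% of all. None of the 3 motifs is contained in another. These are descriptions of letters and not of binding, and the shares were not tested. The last 100 bases before the start site are shown for 2 S-phase and 4 mitotic genes, to show how the letters lie. They are in build GRCm38.p6, 5′ to 3′ on the strand of the gene, with every match to any of the 3 motifs in capitals:
Mcm6 (chr1:128359706-128359805, minus strand): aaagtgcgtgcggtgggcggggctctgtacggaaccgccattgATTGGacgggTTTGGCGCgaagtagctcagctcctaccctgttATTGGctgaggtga
Orc1 (chr4:108579354-108579453, plus strand): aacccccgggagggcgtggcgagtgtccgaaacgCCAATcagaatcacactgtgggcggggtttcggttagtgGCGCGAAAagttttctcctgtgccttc
Cdk1 (chr10:69352913-69353012, minus strand): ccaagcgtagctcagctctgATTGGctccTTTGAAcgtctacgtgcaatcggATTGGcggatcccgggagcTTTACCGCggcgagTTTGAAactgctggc
Cdc20 (chr4:118437344-118437443, minus strand): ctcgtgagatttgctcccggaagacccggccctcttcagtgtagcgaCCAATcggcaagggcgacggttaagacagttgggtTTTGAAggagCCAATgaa
Kif11 (chr19:37376282-37376381, plus strand): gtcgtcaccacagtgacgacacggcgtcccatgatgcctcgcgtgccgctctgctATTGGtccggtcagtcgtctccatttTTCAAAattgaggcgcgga
Ube2c (chr2:164769829-164769928, plus strand): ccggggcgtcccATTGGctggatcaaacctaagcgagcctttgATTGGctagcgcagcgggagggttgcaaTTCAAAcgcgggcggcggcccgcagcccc

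Counted from the start site, the E2F letters began at position -47 in Mcm6, a subunit of the helicase, and at -27 in Orc1, the largest subunit of the origin recognition complex. Cdk1, the kinase that starts mitosis, was the mitotic gene with E2F letters, at -29, and it had CHR letters at -71 and -15. CHR letters began at -18 in Cdc20, an activator of the anaphase-promoting complex, at -19 in Kif11, a spindle motor, and at -29 in Ube2c, the ubiquitin-conjugating enzyme of that complex. Each of the 6 held at least 1 CCAAT match within these bases.

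All 57 members were above 0 in every sample and passed the filter of a mean of at least 1 FPKM in every fit. Their lowest value was 0.46 FPKM, of Cdc25b in a GMP:MA9 leukaemia, and their highest 431 FPKM, of Pcna in a normal progenitor. The S-phase genes had their highest group mean in MEP for 22 of 30, in GMP for 6 and in CMP for 2. The mitotic genes had theirs in ST-HSC for 14 of 27, in MEP for 6, in GMP for 6 and in MPP for 1, Kif23. The lowest group mean was in a leukaemia for 25 S-phase genes and 21 mitotic genes. Some values carry a limit of counting, because the strand was not stated and these genes share sequence with others. Over 20% of the exonic sequence was shared for 5 members: Fen1 (83.6%), Gins2 (69.1%, with Gse1 on the other strand), Cdc20 (26.6%), Ccnb1 (24.6%) and Ube2c (22.0%). Exons of 18 members overlapped another gene in the annotation.

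**Figure D1:**
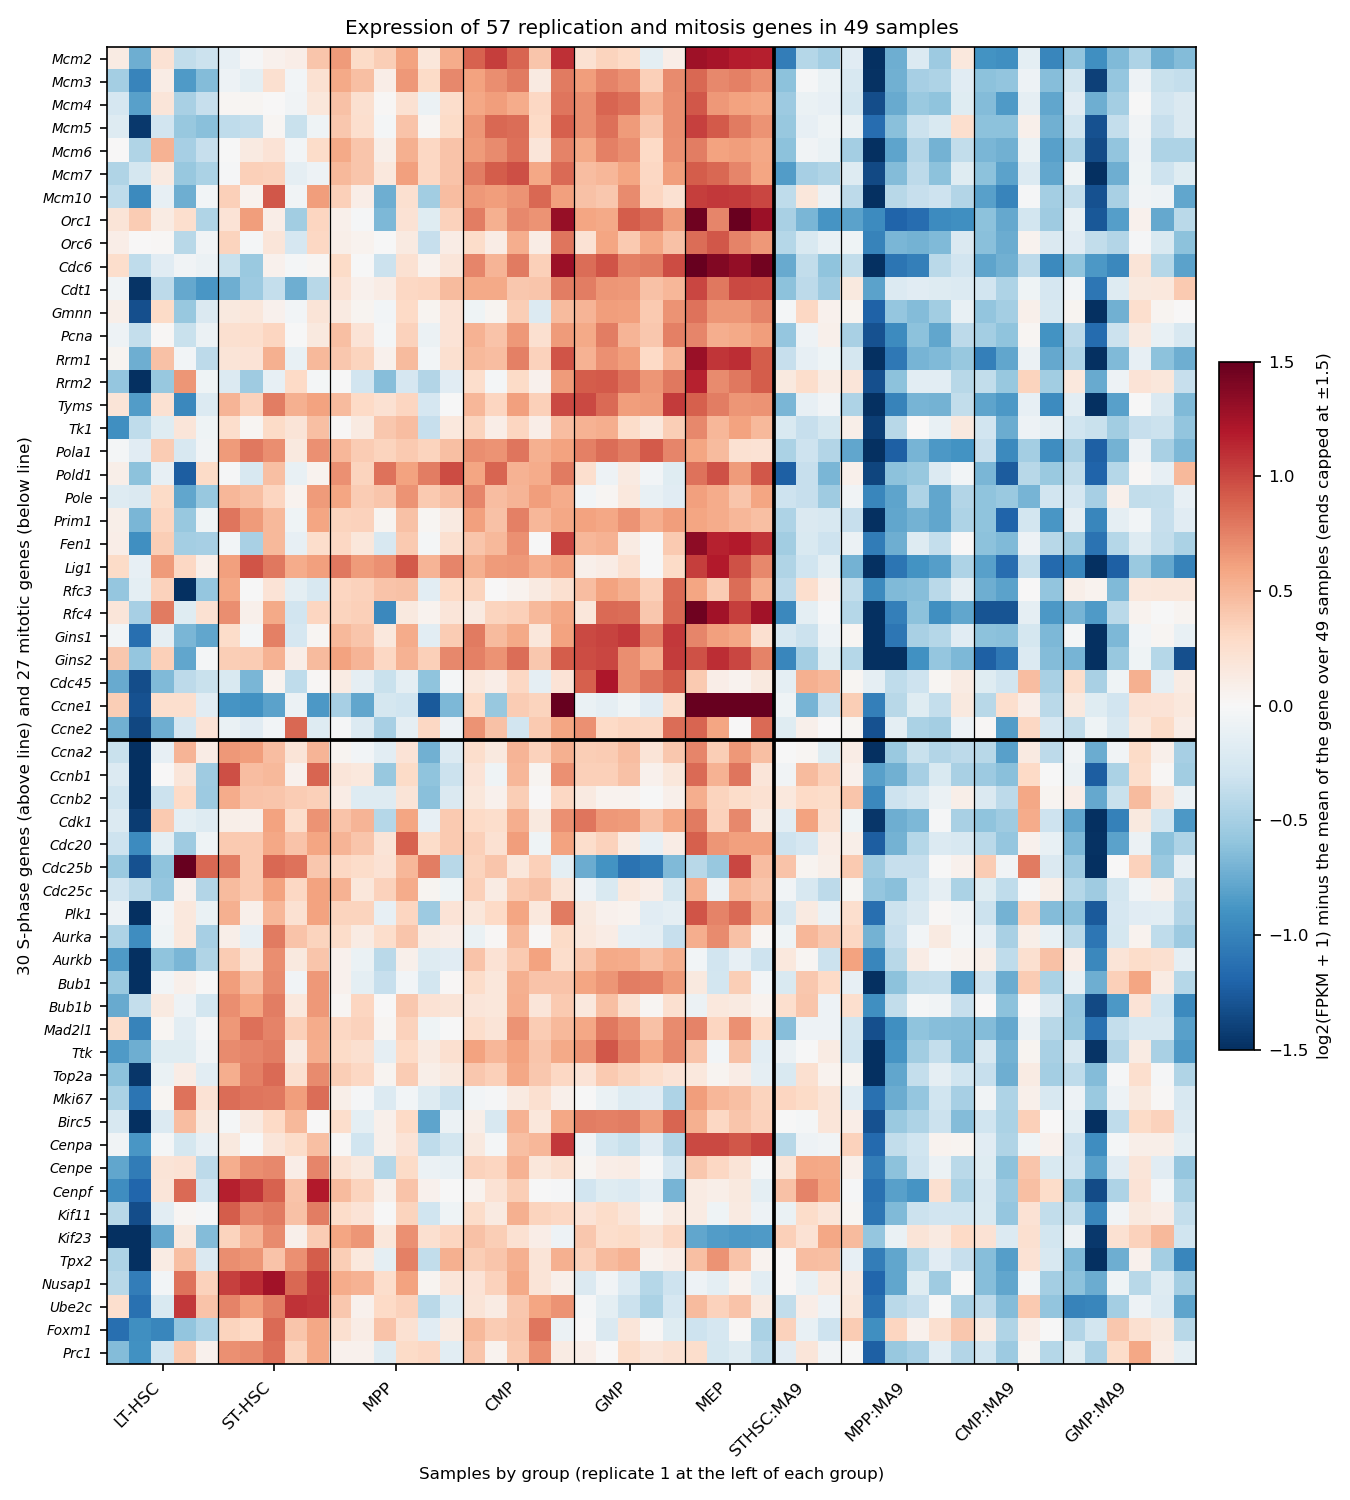
Colour gives log2(FPKM + 1) minus the mean of each gene over the 49 samples, for 57 genes in rows and samples by group in columns, with S-phase genes above the thick horizontal line and normal samples left of the thick vertical line. S-phase genes are mostly red from CMP to MEP and mostly blue in the leukaemias, whereas many mitotic genes are reddest in ST-HSC. The lowest S-phase means of their groups are in replicate 2 of MPP:MA9 (3.75) and of GMP:MA9 (4.13).

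To set both arms of the programme side by side, the mean log2(FPKM + 1) of each list was taken in every sample, as a description with no test. The S-phase mean went from 4.87 ± 0.31 (SD, n = 5) in LT-HSC, 5.28 ± 0.12 in ST-HSC (n = 5) and 5.35 ± 0.16 in MPP (n = 6) to 5.69 ± 0.16 in CMP (n = 5), 5.70 ± 0.09 in GMP (n = 5) and 6.02 ± 0.09 in MEP (n = 4). The steps from ST-HSC to MPP and from CMP to GMP were smaller than the SD of either group. In the leukaemias it was 4.86 ± 0.18 in STHSC:MA9 (n = 3), 4.54 ± 0.43 in MPP:MA9 (n = 6), 4.63 ± 0.29 in CMP:MA9 (n = 4) and 4.76 ± 0.35 in GMP:MA9 (n = 6). The highest of the 19 leukaemias, at 5.14, was just below the lowest of the 20 MPP, CMP, GMP and MEP samples, at 5.15. In unscaled FPKM these did not overlap, with GMP:MA9 replicate 4 at 5.141 and MPP replicate 5 at 5.150. The median-ratio size factors were 1.05 for that leukaemia and 1.11 for that MPP sample. Scaling lowers the MPP sample more, so the lack of overlap is stated for unscaled values only. The leukaemias overlapped with LT-HSC, with or without LT-HSC replicates 4 and 5. They overlapped with ST-HSC through ST-HSC replicate 4, at 5.13. Without ST-HSC replicates 4 and 5, a choice made after seeing the data, the lowest ST-HSC sample was at 5.18, above all leukaemias.

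The mitotic mean had another order. It was 4.76 ± 0.56 (SD, n = 5) in LT-HSC, where single samples lay between 3.87 and 5.34, and 5.67 ± 0.12 in ST-HSC, the highest group. It was 5.23 ± 0.19 in MPP, 5.43 ± 0.10 in CMP, 5.26 ± 0.07 in GMP and 5.36 ± 0.13 in MEP, and neighbours in this order of level differed by less than the larger of their SDs. The leukaemias had 5.22 ± 0.10 in STHSC:MA9, 4.74 ± 0.42 in MPP:MA9, 4.92 ± 0.32 in CMP:MA9 and 4.77 ± 0.42 in GMP:MA9, and their range of 4.00 to 5.34 overlapped with that of the 20 progenitor samples, 4.99 to 5.58.

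The difference of the means, S-phase minus mitotic, was lowest in ST-HSC and highest in MEP among the normal groups. It was -0.39 ± 0.03 (SD) in ST-HSC, 0.12 ± 0.11 in MPP, 0.25 ± 0.14 in CMP, 0.44 ± 0.08 in GMP and 0.65 ± 0.11 in MEP, and in LT-HSC it ranged from -0.61 in replicate 4 to 0.55. It was -0.35 ± 0.08 in STHSC:MA9, -0.20 ± 0.14 in MPP:MA9, -0.29 ± 0.09 in CMP:MA9 and -0.01 ± 0.17 in GMP:MA9. CMP:MA9 did not overlap with CMP, nor GMP:MA9 with GMP, and both lay lower. STHSC:MA9 and ST-HSC overlapped, as did MPP:MA9 and MPP through 1 leukaemia. Without replicates 4 and 5 of both stem cell groups, a choice made after seeing the data, the difference was 0.42 ± 0.13 (SD, n = 3) in LT-HSC and -0.41 ± 0.04 (n = 3) in ST-HSC. The S-phase mean was then 4.91 ± 0.43 in LT-HSC and 5.30 ± 0.12 in ST-HSC, and the mitotic mean 4.49 ± 0.56 and 5.70 ± 0.09.

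**Figure D2:**
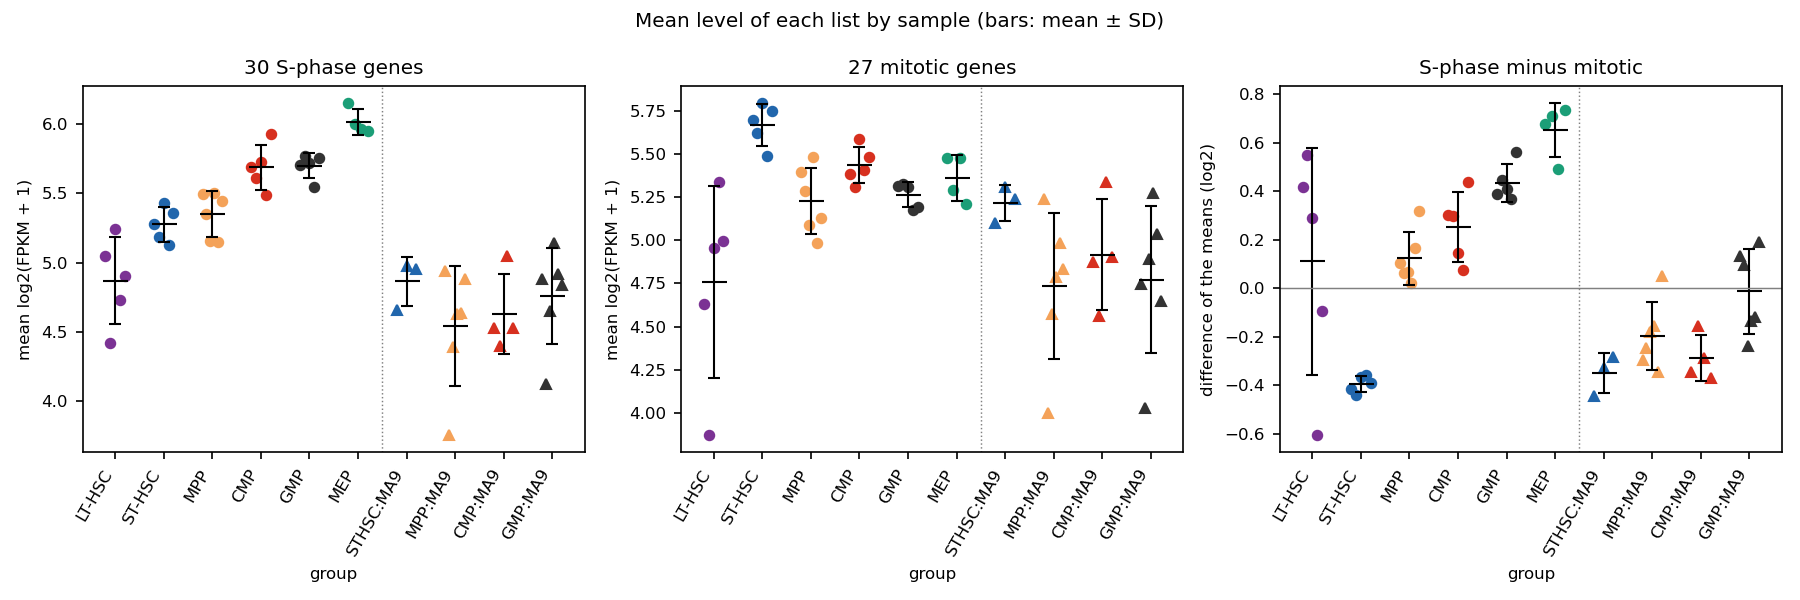
Each point is a sample (circles, normal; triangles, leukaemia), and bars give the mean ± SD of a group, for the mean log2(FPKM + 1) of 30 S-phase genes, of 27 mitotic genes and for their difference. In unscaled FPKM the S-phase mean is highest in MEP, at 6.02, and is below 5.15 in all 19 leukaemias. The mitotic mean is highest in ST-HSC, at 5.67.

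Among the S-phase genes followed through all groups, Mcm5, another helicase subunit, went from 25.1 ± 7.66 FPKM (SD, n = 5) in LT-HSC and 32.3 ± 4.503 in ST-HSC to 44.4 ± 5.84 in MPP, 62.7 ± 10.04 in CMP, 59.9 ± 6.44 in GMP and 68.8 ± 7.51 in MEP, with leukaemia means between 27.5 and 31.7 FPKM. In the order of level, GMP and CMP, and CMP and MEP, differed by less than the SD of CMP. Cdc6, the loading ATPase, was at 14.7 ± 2.56, 13.9 ± 2.64 and 16.4 ± 2.49 FPKM in LT-HSC, ST-HSC and MPP, at 26.99 ± 7.30 in CMP and 28.8 ± 2.05 in GMP, and at 43.7 ± 4.06 in MEP, with leukaemia means between 8.93 and 10.5. Cdt1, its partner in loading, was at 16.6 ± 6.25 and 17.6 ± 2.26 FPKM in the stem cells, between 31.5 and 51.3 in the means of MPP to MEP and between 18.1 and 25.6 in the leukaemia means. Pcna was the most abundant member in every group, from 226 ± 26.1 FPKM in LT-HSC to 389 ± 23.8 in MEP and 153 ± 33.4 in MPP:MA9. Mcm10 had group means from 21.2 FPKM in CMP:MA9 to 64.9 ± 1.14 in MEP.

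The genes of nucleotide supply were less alike. Tyms, thymidylate synthase, was at 81.6 ± 30.3 FPKM in LT-HSC, between 110 and 173 in the other normal means, and between 55.4 and 80.1 in the leukaemia means. Rrm2, the regulated subunit of ribonucleotide reductase, was at 97.1 ± 7.04 FPKM in GMP and 102 ± 14.3 in MEP, but its leukaemia means of 42.7 to 61.9 spanned those of LT-HSC, ST-HSC and MPP (44.3, 51.0 and 44.5). Ccne1, cyclin E1, which opens S phase with Cdk2, was apart from the rest: 29.3 ± 4.81 FPKM in MEP, 8.82 ± 5.99 in CMP, and between 3.07 and 5.75 in the other 8 group means.

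Among the mitotic genes, Mki67, a coat protein of mitotic chromosomes and the usual marker of cycling cells, was at 208 ± 12.3 FPKM in ST-HSC and 169 ± 13.9 in MEP. It was at 124 ± 59.5 in LT-HSC, 112 ± 11.9 in MPP, 128 ± 10.5 in CMP and 106 ± 12.4 in GMP, and at 145 ± 6.42, 82.9 ± 18.9, 108 ± 17.1 and 111 ± 17.9 in the leukaemias from ST-HSC, MPP, CMP and GMP. Top2a, which untangles DNA before chromosomes part, was highest in ST-HSC at 194 ± 30.5 FPKM and between 91.5 and 127 in the leukaemia means. Cdk1 was at 106 ± 9.53 FPKM in GMP and 42.7 ± 20.7 in GMP:MA9, the highest and the lowest of its 10 group means. Ccnb1, cyclin B1, was at 77.8 ± 19.1 FPKM in ST-HSC and 78.0 ± 15.9 in MEP, and its lowest mean was 37.8 in MPP:MA9. Plk1, the Polo kinase, lay between 13.1 and 31.6 FPKM in all group means and Birc5, survivin, between 48.8 and 116. The phosphatases that switch on Cdk1 were low throughout: Cdc25b lay between 2.11 FPKM in GMP and 8.09 in ST-HSC, and Cdc25c between 3.44 in MPP:MA9 and 6.77 in ST-HSC.

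**Figure D3:**
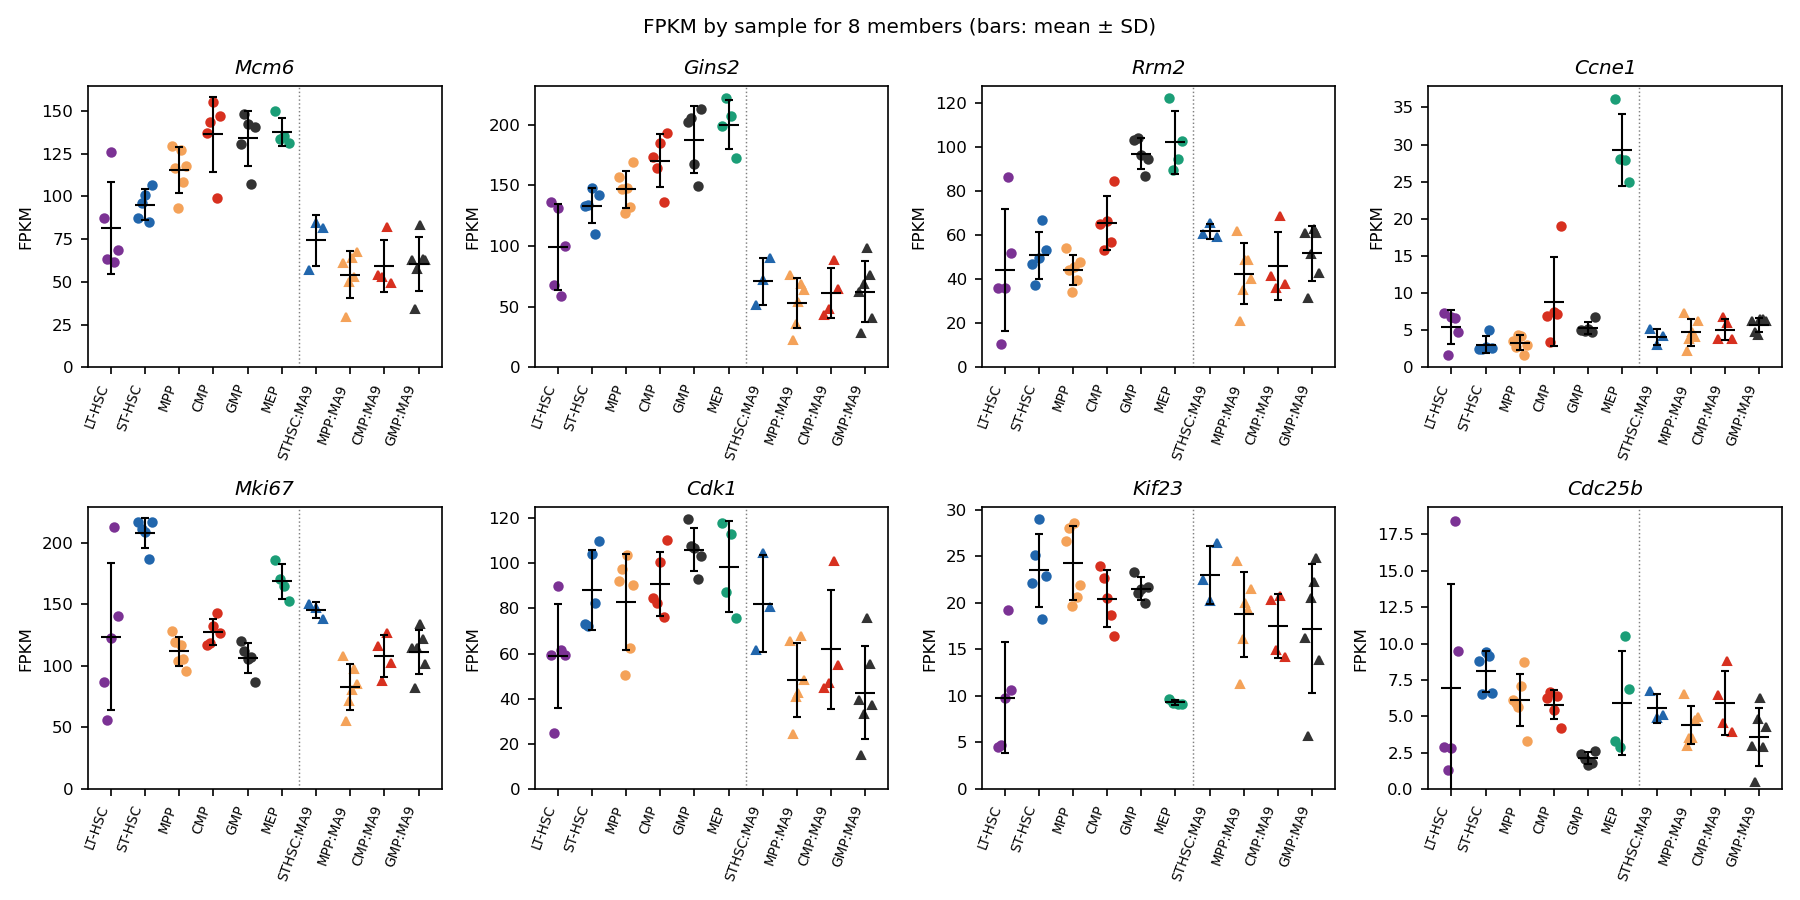
Each panel gives the FPKM of 1 gene in every sample (circles, normal; triangles, leukaemia), with bars for the mean ± SD of a group. The helicase gene Mcm6, the GINS gene Gins2 and the reductase gene Rrm2 are highest from CMP or GMP to MEP. Ccne1 is highest in the 4 MEP samples, with 1 CMP sample at 19.1 FPKM below them. Kif23 lies between 9.10 and 9.66 FPKM in MEP against 16.4 or more in CMP.

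Differences between groups were tested with limma on log2(FPKM + 1) over all genes of a fit, and a gene was called where the Benjamini-Hochberg adjusted p was under 0.05 and the difference over 1 on the log2 scale. Only called genes are said to have risen or fallen. A count of genes under the same adjusted p at any size of difference is given beside it.

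In ST-HSC against LT-HSC, 10 of the 27 mitotic genes rose and none fell, where 1.5% of all 12367 genes tested rose and 0.768% fell. No S-phase gene was called by limma, with 19 of 30 higher at an unadjusted p under 0.05, where 2187 of all 12367 genes were higher. At any size, 23 mitotic and 11 S-phase genes were higher and none lower, against 7.51% of all genes higher and 1.68% lower, and the medians of the differences were 0.89 for mitotic genes, 0.43 for S-phase genes and 0.12 for all genes. Kif23, a motor of the midbody in cytokinesis, was at 4.54, 4.76, 9.80, 19.2 and 10.6 FPKM in the 5 LT-HSC samples and at 22.1, 25.1, 29.0, 18.3 and 22.8 in ST-HSC. The groups overlapped through LT-HSC replicate 4, and the difference was 1.34 ± 0.22 (SE, adjusted p = 0.000259). Foxm1, a transcription factor of late cell cycle genes, was at 12.6, 14.8, 14.1, 18.8 and 20.7 FPKM in LT-HSC and at 36.6, 35.6, 52.6, 38.8 and 43.7 in ST-HSC. It did not overlap and rose by 1.31 ± 0.15 (adjusted p = 7.63e-06). Cenpf, a kinetochore protein, rose by 1.22 ± 0.24 (adjusted p = 0.00133), and Aurkb, Nusap1, Kif11, Top2a, Tpx2, Ccnb2 and Ccnb1 by 1.02 to 1.19. Among the S-phase genes Ccne1 and Cdc6 had negative differences, -0.59 (adjusted p = 0.24) and -0.08 (adjusted p = 0.81). The count of 10 was 19 without replicates 4 and 5 of both groups, the libraries with granulocyte RNA. Over all genes 391 then rose, against 185 with those replicates kept. The mitotic count was 18 without LT-HSC replicate 4 and 3 without LT-HSC replicate 2. It was 4 after median-ratio scaling, 5 after correction for GC content and length and 2 when only these groups were fitted. The part of granulocyte and erythroid RNA in the difference was not tested beyond leaving out the libraries with granulocyte RNA. The mitochondrial share was 24.6% to 36.7% in LT-HSC and 26.9% to 34.5% in ST-HSC, and the relative depth 0.490 to 0.763 and 0.540 to 0.8293.

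From ST-HSC to MPP, no member was called by limma in either list, where 2.13% of all genes rose and 1.31% fell. At an unadjusted p under 0.05, 17 mitotic genes were lower and none higher, and 6 S-phase genes were higher and 2 lower. At that p, 2900 of all 12367 genes were higher and 1073 lower. At any size, 13 mitotic genes were lower after adjustment (4.41% of all genes) and 4 S-phase genes higher (14.5% of all genes), and the medians were -0.46 for mitotic, 0.07 for S-phase and 0.10 for all genes. Mki67 was at 217, 211, 209, 187 and 217 FPKM in ST-HSC and between 96.1 and 129 in the 6 MPP samples, with a median of 111. These did not overlap, and the difference was -0.90 ± 0.19 (adjusted p = 0.00120). Cdt1 had the largest S-phase difference, 0.81 ± 0.15 (adjusted p = 0.000516). Kif23 was the mitotic gene with a positive value, 0.05 (adjusted p = 0.92). Without replicates 4 and 5 of the stem cells no member was called either. The mitochondrial share was 15.2% to 27.2% in MPP, and the relative depth of 1.16 to 1.39 lay above that of every stem cell sample. The part of both in the differences was not tested.

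From MPP to CMP, Ccne1 rose and no other member was called, where 1.49% of all genes rose and 2.83% fell. Ccne1 was between 1.71 and 4.40 FPKM in MPP (median 3.33) and at 6.96, 3.37, 7.48, 7.20 and 19.1 in CMP, so that the groups overlapped, and the difference of 1.05 ± 0.28 (adjusted p = 0.0124) lost its call without CMP replicate 5, without MPP replicate 5 and after median-ratio scaling. At any size, 9 S-phase and 2 mitotic genes were higher and none lower, against 7.07% of all genes higher and 7.41% lower. Those 9 included the loading factors Orc1 (0.84) and Cdc6 (0.67) and Mcm10 (0.70), which helps to activate the helicase. They also included the helicase genes Mcm5 (0.48), Mcm2 (0.42), Mcm7 (0.41) and Mcm4 (0.39). The medians were 0.35 for S-phase, 0.24 for mitotic and 0.03 for all genes, and of the mitotic genes 5 were higher and none lower at an unadjusted p under 0.05. At that p, 1850 of all 12367 genes were higher and 1635 lower.

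CMP are known to give rise to GMP and MEP. In MEP against CMP, Ccne1 rose and Kif23 fell, where 2.34% of all genes rose and 9.49% fell. Ccne1 was at 36.2, 28.0, 27.9 and 24.9 FPKM in MEP and no CMP sample was above 19.1, a difference of 1.79 ± 0.32 (adjusted p = 7.11e-05). Kif23 was at 9.66, 9.28, 9.10 and 9.14 FPKM in MEP and at 23.9, 22.7, 20.5, 18.7 and 16.4 in CMP. It did not overlap and fell by 1.05 on the log2 scale (SE 0.23, adjusted p = 0.000951), a call that was lost without CMP replicate 1, after median-ratio scaling and after GC and length correction. At any size, 8 S-phase genes were higher and none lower, against 8.55% of all genes higher, and 1 mitotic gene, the centromeric histone Cenpa (0.56), was higher and 3 lower (Kif23, Foxm1 and Aurkb), against 23% of all genes lower. The S-phase median was 0.27, the mitotic median -0.05 and that of all genes -0.14.

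In GMP against CMP, Cdc25b fell and no other member was called, where 3.31% of all genes rose and 7.94% fell. Cdc25b was at 2.43, 2.08, 1.66, 1.77 and 2.63 FPKM in GMP and at 6.24, 6.65, 5.45, 6.37 and 4.18 in CMP, with no overlap, and fell by 1.12 (SE 0.37, adjusted p = 0.0187), though not after median-ratio scaling or GC and length correction. No S-phase gene was called by limma, and 3 were higher and 5 lower at an unadjusted p under 0.05. At that p, 1502 of all 12367 genes were higher and 4127 lower. Cdc45, a partner of the helicase, was higher by 0.78 ± 0.16 (adjusted p = 0.000456), where 9.61% of all genes were higher at any size, and Mcm2, Pold1, Pole, Lig1 and Mcm7 were lower by -0.32 to -0.70. At any size 5 mitotic genes were lower, against 27.1% of all genes. The medians were 0.07 for S-phase, -0.16 for mitotic and -0.20 for all genes.

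Across the whole distance from LT-HSC to GMP, 10 S-phase genes and 5 mitotic genes rose and none fell, where 8.35% of all genes rose and 10.2% fell. At any size, 25 S-phase and 17 mitotic genes were higher, against 27.5% of all genes, and 1 mitotic gene, Cdc25b, was lower (-0.92, adjusted p = 0.041). The medians were 0.82 for S-phase, 0.54 for mitotic and 0.05 for all genes. Cdc45 was at 14.8, 9.52, 15.7, 19.2 and 20 FPKM in LT-HSC and at 48.3, 60.5, 42.0, 45.4 and 48.7 in GMP, and rose by 1.60 ± 0.16 (adjusted p = 6.26e-09). Its exons overlap Ufd1l on the other strand. Gins1, of the GINS complex, was at 23.7, 10.6, 22.1, 14.8 and 13.8 FPKM against 49.4, 50.1, 51.8, 42.0 and 52.0, and rose by 1.53 ± 0.19 (adjusted p = 1.21e-07). Neither gene overlapped between the groups, nor did Rrm2, which rose by 1.38 ± 0.29 (adjusted p = 0.00024). Of the mitotic genes, Aurkb, the kinase of the chromosomal passenger complex, rose by 1.33 ± 0.14 (adjusted p = 1.22e-08), Kif23 by 1.23 ± 0.22 and the spindle checkpoint kinase Ttk by 1.13 ± 0.15. Lig1 among S-phase genes (-0.10, adjusted p = 0.52) and Mki67, Cenpf, Nusap1 and Ube2c among mitotic genes (-0.02 to -0.32, adjusted p of 0.27 to 0.95) had negative values. The count of S-phase calls was 7 without LT-HSC replicate 2, and the mitotic count was 3 after GC and length correction and 8 without the LT-HSC and ST-HSC replicates 4 and 5. The S-phase count was 8 without those replicates. GMP had a mitochondrial share of 17.6% to 27.5% and a relative depth of 0.818 to 1.53, above all LT-HSC samples in depth, and the part of both was not tested. This comparison and that of ST-HSC share the LT-HSC samples.

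Each leukaemia was next compared with the normal cell in which it was started. Of the 30 S-phase genes 1 fell in STHSC:MA9 (3.33%), 11 in MPP:MA9 (36.7%), 19 in CMP:MA9 (63.3%) and 13 in GMP:MA9 (43.3%), where 11.9%, 13.6%, 14.8% and 8.87% of all genes fell, so that the share was below that of all genes in STHSC:MA9 and above it in the other 3. No S-phase gene rose in any of the 4, where 12.3%, 13.5%, 13% and 13.5% of all genes rose. At an unadjusted p under 0.05, 1 S-phase gene was higher in STHSC:MA9 and none in the other 3. At that p, 3286, 3668, 3209 and 3972 of all 12600 genes were higher, in the same order of origins. Of the 30, 25 had a negative difference in all 4 comparisons and 19 were called lower in at least 1. The 8 called lower in at least 3 comparisons were Gins1, Gins2, Mcm3, Mcm6, Pola1, Rrm1, Tyms and Lig1, and of these Lig1 was called in all 4. Of the 27 mitotic genes 23 were negative in all 4 comparisons, 6 were called lower in at least 1 and none in 3. For these counts over the 4 comparisons the share of all genes was not computed, so they only describe the lists. The GMP and the other normal samples also enter the comparisons between normal cells given before.

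**Figure D4:**
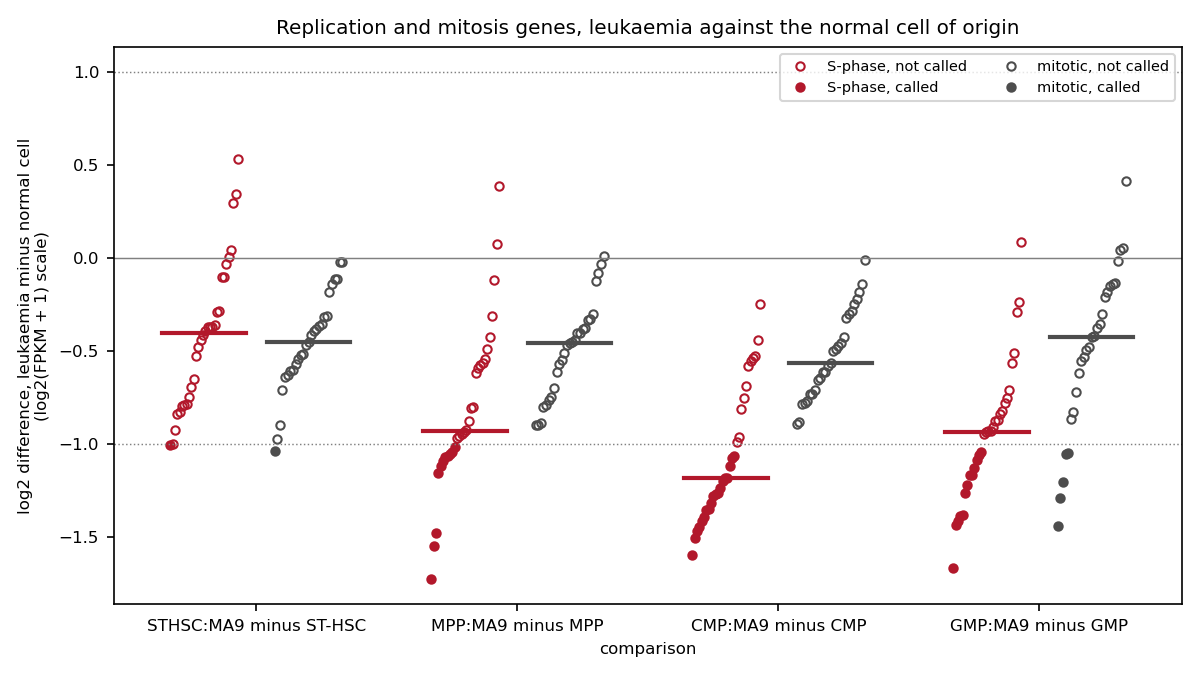
Each point is the log2 difference of 1 gene between a leukaemia group and its normal cell, filled where the gene was called, for S-phase genes (red) and mitotic genes (grey), with a line at the median of each list and dotted lines at a difference of 1. The S-phase medians are -0.40, -0.93, -1.18 and -0.93 from STHSC:MA9 to GMP:MA9, and the mitotic medians lie between -0.42 and -0.56.

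In STHSC:MA9 against ST-HSC, Lig1 and Nusap1 fell, 1 gene of each list, where 11.9% of all 12600 genes tested fell. Lig1, the ligase that joins Okazaki fragments, was at 74.0, 82.0 and 91.6 FPKM in STHSC:MA9 and at 156, 196, 176, 150 and 156 in ST-HSC. It did not overlap and fell by 1.00 on the log2 scale (SE 0.22, adjusted p = 0.000224), at the edge of the threshold. Nusap1, a microtubule bundler of the spindle, was at 25.3, 23.0 and 28.0 FPKM against 51.7, 54.9, 61.0, 46.1 and 52.4, and fell by 1.04 (SE 0.20, adjusted p = 5.28e-05). At any size, 11 S-phase and 10 mitotic genes were lower, against 24.6% of all genes, and 1 S-phase gene was higher, Cdc45, at 22.9, 37.3 and 36.3 FPKM against 21.7, 15.4, 26.5, 19.3 and 25.9 (0.54, adjusted p = 0.028). The medians were -0.40 for S-phase, -0.45 for mitotic and -0.04 for all genes. The S-phase count was 0 without ST-HSC replicate 2 or 3 or STHSC:MA9 replicate 1 and 2 without ST-HSC replicate 4 or STHSC:MA9 replicate 2 or 3, and the mitotic count was 0 without ST-HSC replicate 3 and 2 without ST-HSC replicate 1 or 2. No gene of either list was called after median-ratio scaling. Without ST-HSC replicates 4 and 5, a choice made after seeing the data, 2 genes of each list fell, and the differences of Lig1 and Nusap1 were -1.08 and -1.11. The mitochondrial share was 16.3% to 19.8% in STHSC:MA9, below all ST-HSC samples, and its part was not tested.

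In MPP:MA9 against MPP, 11 S-phase genes and no mitotic gene fell, where 13.6% of all genes fell. At any size, 26 S-phase and 16 mitotic genes were lower and none higher, against 34.8% of all genes lower and 27.7% higher. At an unadjusted p under 0.05, 17 mitotic genes were lower, where 4612 of all 12600 genes were lower. Lig1 was between 145 and 192 FPKM in MPP, with a median of 166, and between 23.1 and 73.3 in MPP:MA9, with a median of 55.3. It did not overlap and fell by 1.72 (SE 0.17, adjusted p = 8.19e-11). Gins2, another GINS subunit whose reads may be mixed with those of Gse1, was between 128 and 169 FPKM in MPP (median 147) and between 22.4 and 75.8 in MPP:MA9 (median 59.1), and fell by 1.54 (SE 0.23, adjusted p = 5.72e-07). Pola1, the catalytic subunit of the priming polymerase, was between 21.4 and 24.1 FPKM in MPP (median 22.3) and between 3.42 and 9.98 in MPP:MA9 (median 8.63), and fell by 1.48 (SE 0.16, adjusted p = 5.83e-10). Neither gene overlapped. The other 8 called genes, Pold1, Mcm6, Prim1, Pole, Mcm3, Tyms, Rrm1 and Gins1, fell by 1.02 to 1.15. Against the majority, Ccne1 (0.39, adjusted p = 0.16), Cdc45 (0.08, adjusted p = 0.69) and, among mitotic genes, Aurkb (0.01, adjusted p = 0.95) had positive values. The medians were -0.93 for S-phase, -0.45 for mitotic and -0.09 for all genes. The S-phase count was 3 without MPP:MA9 replicate 2 and 5 after median-ratio scaling, and the mitotic count was 1 without MPP:MA9 replicate 1.

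In CMP:MA9 against CMP, 19 S-phase genes fell, the most of any comparison made here, and no mitotic gene was called, where 14.8% of all genes fell. At any size, 27 S-phase and 16 mitotic genes were lower, against 36% of all genes. At an unadjusted p under 0.05, 18 mitotic genes were lower, where 4814 of all 12600 genes were lower. All 57 members had a negative difference. Mcm2, a helicase subunit, was at 17.9, 17.6, 30.8 and 16.9 FPKM in CMP:MA9 and at 64.0, 70.9, 63.5, 45.7 and 73.9 in CMP. It did not overlap and fell by 1.59 (SE 0.21, adjusted p = 6.05e-08). Gins2 was at 43.2, 48.1, 88.8 and 65.0 FPKM against 173, 164, 184, 136 and 193, and fell by 1.51 (SE 0.27, adjusted p = 1.34e-05), and Lig1 was at 57.4, 45.3, 78.7 and 44.5 against 148, 158, 160, 148 and 156, and fell by 1.47 (SE 0.20, adjusted p = 1.04e-07). In each of these the values of the leukaemias lay below all CMP values, and CMP:MA9 replicate 3 was the highest leukaemia. All of Mcm2, Mcm3, Mcm4, Mcm5, Mcm6 and Mcm7, the 6 subunits of the helicase, were among the 19, with differences of -1.08 to -1.59. The medians were -1.18 for S-phase, -0.56 for mitotic and -0.16 for all genes. Without CMP:MA9 replicate 3, 2 mitotic genes were called.

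In GMP:MA9 against GMP, 13 S-phase genes and 5 mitotic genes fell, where 8.87% of all genes fell. At any size, 27 S-phase and 14 mitotic genes were lower and none higher, against 28.7% of all genes lower and 29.7% higher. Gins2 was at 202, 206, 167, 149 and 213 FPKM in GMP and between 28.6 and 98.3 in the 6 GMP:MA9 samples (median 65.7), and fell by 1.67 (SE 0.25, adjusted p = 6.16e-07). Cdc6 was at 28.4, 30.6, 26.7, 27.1 and 31.3 FPKM in GMP and between 7.39 and 17.8 in GMP:MA9 (median 9.14), and fell by 1.43 (SE 0.20, adjusted p = 2.29e-07). Neither overlapped, nor did Pola1, which fell by 1.41 (SE 0.17, adjusted p = 1.09e-08). Of the mitotic genes, Cdk1 was at 120, 108, 107, 93.0 and 103 FPKM in GMP and between 15.0 and 75.7 in GMP:MA9 (median 38.4), and fell by 1.44 (SE 0.27, adjusted p = 2.43e-05) with no overlap. Ttk fell by 1.29, the checkpoint protein Mad2l1 by 1.20, and Birc5 and the spindle assembly factor Tpx2 by 1.05 each. The other mitotic genes did not share this size: Mki67 was at 120, 112, 106, 107 and 86.9 FPKM in GMP and between 81.7 and 134 in GMP:MA9 (median 115), a difference of 0.06 ± 0.13 (adjusted p = 0.73). Cdc25b (0.42, adjusted p = 0.16), Cenpa (0.05, adjusted p = 0.86) and Ccne1 of the S-phase genes (0.09, adjusted p = 0.79) were the other positive values. The medians were -0.93 for S-phase, -0.42 for mitotic and 0.00 for all genes. Without GMP:MA9 replicate 2, which had the lowest value of both lists in its group and a mitochondrial share of 34.5%, 9 S-phase and 3 mitotic genes were called.

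The leukaemias differed from their normal cells in more than the cell cycle genes. A list of 8 genes of mature granulocytes, S100a8, S100a9, Ltf, Camp, Ngp, Lcn2, Mmp8 and Retnlg, none of which was at 0 in every sample of a group, summed to between 998 and 51973 FPKM in MPP:MA9 against 13.7 to 884 in MPP, and to between 1509 and 30769 in CMP:MA9 against 21.0 to 258.6 in CMP. In GMP:MA9 it summed to between 1256 and 14467 FPKM, against 1709 to 11369 in GMP, and there the groups overlapped. It was between 18910 and 46204 in STHSC:MA9 against 51.4 to 42420 in ST-HSC, and these overlapped through ST-HSC replicate 4. ST-HSC replicates 1, 2, 3 and 5 summed to 51.4, 114, 1210 and 8744. Kit, whose protein was used to sort the normal cells, had means of 57.2 to 110 FPKM in ST-HSC, MPP, CMP and GMP. Its leukaemia means were 0.853 to 2.98. The normal cells were sorted from lineage-depleted bone marrow and the leukaemias were bulk GFP+ spleen cells, so organ and sorting differed together with the fusion. The part of the granulocyte list, of organ and of sorting in the lower S-phase levels was not tested.

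The 4 leukaemia groups, averaged with equal weight and set against GMP, had 15 S-phase genes and 2 mitotic genes lower and none higher, where 7.98% of all genes fell and 13.4% rose. At any size, 29 S-phase genes were lower and 14 mitotic genes, against 30% of all genes. Gins2 fell by 1.65 (SE 0.21), Cdc6 by 1.52 (SE 0.17) and Pola1 by 1.5 (SE 0.14), and Mad2l1 by 1.16 (SE 0.13) and Ttk by 1.13 (SE 0.16) among the mitotic genes, each with an adjusted p of at most 1.89e-07. Cdc25b was the mitotic gene that was higher at any size, by 0.84 (adjusted p = 0.00078), as were 33.1% of all genes. The mitotic count was 4 without CMP:MA9 replicate 3, GMP replicate 4 or GMP:MA9 replicate 4. This comparison uses the same GMP and GMP:MA9 samples as that of GMP:MA9 with GMP.

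Whether the normal to leukaemia difference depended on origin was tested with an F test in limma. It passed an adjusted p of 0.05 for 8 S-phase genes (Mcm4, Mcm5, Cdc6, Cdt1, Rrm2, Pold1, Pole and Cdc45) and 2 mitotic genes (Mki67 and Nusap1), where 38% of all genes passed, a larger share than in either list. Cdc45 had the smallest adjusted p, 0.000386. Its differences were 0.54 from ST-HSC, 0.08 from MPP, -0.25 from CMP and -0.87 from GMP, and its means were 32.2, 23.8, 24.15 and 26.9 FPKM in the leukaemias against 21.8, 22.5, 28.1 and 48.98 in the normal cells. Pole, the catalytic subunit of the leading-strand polymerase, differed by -0.79, -1.07, -1.12 and -0.23 in the same order (adjusted p = 0.000392), and its normal means of 21.1 in ST-HSC, 22.4 in MPP and 24.0 in CMP stood above the 15.5 FPKM of GMP. Rrm2 differed by 0.30, -0.11, -0.53 and -0.93 (adjusted p = 0.0074). Mki67 differed by -0.52, -0.45, -0.25 and 0.06 (adjusted p = 0.0486). The S-phase count was 5 without STHSC:MA9 replicate 2, and the mitotic count was 0 without GMP replicate 4 or 5, GMP:MA9 replicate 3 or STHSC:MA9 replicate 2 and 1 without each of 22 other samples. Without ST-HSC replicates 4 and 5 the counts were 7 and 1.

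Between the 4 leukaemia groups themselves few members differed. No S-phase gene was called in any of the 6 pairs by limma, where 4.82% of all genes were called in at least 1 pair, and the pairs had between 1 and 6 S-phase genes under an unadjusted p of 0.05. In STHSC:MA9 against MPP:MA9, 6 of the 30 were higher at that p, where 1075 of all 12128 genes were higher and 2284 lower. In MPP:MA9 against GMP:MA9, 6 of the 30 were lower, where 2467 of all genes were higher and 1264 lower. Cenpf was the mitotic gene called, at 21.5, 26.8 and 24.1 FPKM in STHSC:MA9 and between 6.63 and 18.7 in MPP:MA9 (median 9.66), higher by 1.11 ± 0.32 (adjusted p = 0.0318) with no overlap. That call was lost without MPP:MA9 replicate 2, 3, 4 or 6, without STHSC:MA9 replicate 2 or 3, without the filter on low values and after GC and length correction, and the count was 3 without GMP:MA9 replicate 4. In the F test over the 4 groups Mki67 passed (adjusted p = 0.0247), where 13.3% of all genes passed, and no S-phase gene did, with 1 at an unadjusted p under 0.05. The mitotic count was 0 without MPP:MA9 replicate 3 or STHSC:MA9 replicate 2 or 3, 2 without GMP:MA9 replicate 2 or MPP:MA9 replicate 5 and 4 without GMP:MA9 replicate 4. Mki67 was at 151, 147 and 138 FPKM in STHSC:MA9 and between 54.9 and 108 in MPP:MA9, with no overlap, at 117, 87.5, 127 and 102 in CMP:MA9, and between 81.7 and 134 in GMP:MA9. In STHSC:MA9 against MPP:MA9, 25 of 30 S-phase and 26 of 27 mitotic genes had positive differences, with medians of 0.39 and 0.47 against -0.06 for all genes. At any size 3 mitotic genes and no S-phase gene were higher in that pair and none of either list lower, where 2.31% of all genes were higher and 8.87% lower. Past both thresholds, 2.47% of all genes were lower in that pair.

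Further genes of the same processes, in lists drawn up by name, had values beside the members. Of 30 other replication genes 2, 9, 14 and 11 fell in the leukaemias from ST-HSC, MPP, CMP and GMP against their normal cells and none rose. These are 6.67%, 30%, 46.7% and 36.7% of the list, where 11.9%, 13.6%, 14.8% and 8.87% of all genes fell and 12.3%, 13.5%, 13% and 13.5% rose. Dut, which removes dUTP, fell in all 4, with log2 differences of -1.01, -1.42, -1.74 and -1.91. So did Pole3, a histone-fold subunit of polymerase epsilon, with differences of -1.18, -1.28, -1.55 and -1.49. Without ST-HSC replicates 4 and 5, 3 of the 30 fell in STHSC:MA9 and Dut lost its call there (-0.99, adjusted p = 0.0196). Of 36 other mitosis genes 1, 1, 2 and 4 fell and none rose, or 2.78%, 2.78%, 5.56% and 11.1%, which is below the share of all genes in the first 3 comparisons. In ST-HSC against LT-HSC, 6 of these 36 rose (16.7%) and no other replication gene was called, where 1.5% of all genes rose. Cep55, an abscission factor, was highest at 1.52. Without replicates 4 and 5 of both groups, 23 of the 36 and 1 of the 30 other replication genes rose there. Over all genes 391 then rose, against 185 with those replicates kept. Of 18 subunits of the anaphase-promoting complex and of cohesin, 1 fell in CMP:MA9, Cdc27 by 1.17, and none was called in the other 3 leukaemia comparisons. At any size 4, 10, 10 and 8 of them were lower, where 24.6%, 34.8%, 36% and 28.7% of all genes were lower.

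Of 18 E2F, DREAM and MuvB regulators, E2f2, an activating E2F factor, moved the other way from the S-phase genes and rose in all 4 leukaemia comparisons. It was at 12.6, 20.1 and 28.9 FPKM in STHSC:MA9, in order of level, against 4.69 to 23.4 in ST-HSC (n = 5, median 6.56), and these overlapped through ST-HSC replicate 4. Without ST-HSC replicates 4 and 5 the E2f2 difference was 1.67 ± 0.25 (adjusted p = 7.86e-07). It was between 33.8 and 44.6 FPKM in MPP:MA9 against 3.57 to 7.21 in MPP, between 29.4 and 40.5 in CMP:MA9 against 5.13 to 7.93 in CMP, and between 19.7 and 42.3 in GMP:MA9 against 2.94 to 5.06 in GMP, with no overlap in these 3. The differences were 1.17 ± 0.30 (adjusted p = 0.00119), 2.66 ± 0.23 (adjusted p = 3.27e-12), 2.28 ± 0.27 (adjusted p = 6.32e-09) and 2.46 ± 0.24 (adjusted p = 2.19e-10). High E2f2 was not confined to leukaemias. In normal LT-HSC, which enter none of these comparisons, it ranged from 0.61 to 44.3 FPKM (n = 5, median 2.6), and in MEP from 7.28 to 12.5. Tfdp2, a dimerisation partner of E2F factors, fell by 1.74, 1.72 and 1.45 in STHSC:MA9, MPP:MA9 and CMP:MA9. E2f3 fell by 1.23 and 1.11 and E2f5 by 1.02 and 1.08 in MPP:MA9 and CMP:MA9, and E2f4 by 1.40 in CMP:MA9. In all, 1, 2, 1 and 1 of the 18 rose and 1, 3, 4 and 1 fell, in the same order of origins. The shares were 5.56%, 11.1%, 5.56% and 5.56% for those that rose, where 12.3%, 13.5%, 13% and 13.5% of all genes rose. For those that fell they were 5.56%, 16.7%, 22.2% and 5.56%, where 11.9%, 13.6%, 14.8% and 8.87% of all genes fell. None of the genes named here is among the 57, and they were named after their values were seen.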

How the data were processed

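RNA was sequenced from amplified cDNA (NuGen Ovation V2) on an Illumina HiSeq. The authors deposited FPKM values, estimated with RSEM (version not given in the sources used here) and, per the submitters' processing notes, on mm9. The authors tested with edgeR on counts, which are not analysed here. The table has 68 columns, of which 49 could be tied to a sample by name and the other 19 were left out. Symbols and positions came from GENCODE M1 on NCBIM37, 1-based, and promoter windows from RefSeq on GRCm38.p6.

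Values were tested as log2(FPKM + 1) with limma 3.58.1 in R 4.3.3 (moderated, with a trend), after a filter at a mean of 1 FPKM, in fits of 6 normal groups, of 8 groups or of 4 leukaemia groups. Adjusted p is Benjamini-Hochberg over all genes of a fit. A fold on this scale understates the change of low genes. The pipeline was tested on simulated data. Values from 4 leukaemia groups weigh each group equally.

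Members and lists were chosen with earlier results of these data known. The text names 16 members in every group, the 3 largest called differences of each comparison and list, and members that went against the majority. Genes outside the lists of members were named after their values were seen. Same-numbered ST-HSC and LT-HSC samples deviated together (r of 0.142 to 0.683 in 5 pairs), and a block on that number left 10 mitotic calls. Alternatives were a pseudocount of 0.1, no filter, median-ratio scaling, GC and length correction, a replicate block, the compared groups alone, each sample left out, and replicates 4 and 5 of LT-HSC and ST-HSC left out, which was chosen after seeing the data where it concerns the leukaemias, the list means and the genes outside the members.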

Additional observations from a re-analysis of the deposited data

Results flagged for a closer look

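The 16 members followed through all groups and the means of both lists, 18 measures, were searched, in each group of 4 to 10 samples, for a sample whose gap to its nearest neighbour was large for the range of the group (Dixon's criterion). Of 162 such groups 12 had one, where chance gives about 1 in 20. Lower than the rest were Mcm5 in GMP:MA9 replicate 2 (14.53 FPKM), Mcm10 in MPP:MA9 replicate 2 (9.48), Cdt1 in MPP:MA9 replicate 2 (14.6), Plk1 in LT-HSC replicate 2 (5.57), Birc5 in LT-HSC replicate 2 (16.36) and GMP:MA9 replicate 2 (20.88), Mki67 in ST-HSC replicate 4 (187.07) and Cdt1 in MEP replicate 2 (46.14). Higher than the rest were Mcm5 in CMP:MA9 replicate 3 (39.61), Mcm10 in CMP replicate 4 (57.5) and Ccne1 in ST-HSC replicate 4 (5.11) and GMP replicate 5 (6.77).

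For 10 members the normal to leukaemia difference was unequal between the 4 origins by limma's F test, where 38% of all genes passed. The adjusted p-values were 0.0191 for Mcm4, 0.00956 for Mcm5, 0.0206 for Cdc6, 0.0371 for Cdt1, 0.0074 for Rrm2, 0.0271 for Pold1, 0.000392 for Pole, 0.000386 for Cdc45, 0.0486 for Mki67 and 0.0336 for Nusap1. The differences of Mcm5, Cdc6, Cdt1, Mcm4 and Rrm2 were nearest to 0 or positive in STHSC:MA9, and those of Pole, Pold1, Nusap1 and Mki67 were nearest to 0 or positive in GMP:MA9.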

How the results depend on the processing

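Of 97 called differences of single members none changed sign, and the calls that held were 97 with a pseudocount of 0.1, 96 without the filter, 70 after median-ratio scaling, 96 with a replicate block and 78 after GC and length correction. Counts that changed by more than 1.5 times are given here, and the cause was not tested. After median-ratio scaling, mitotic calls were 4 in ST-HSC against LT-HSC, 1 in MPP against ST-HSC, 0 in GMP and in MEP against CMP, 0 in STHSC:MA9 and 2 in the F test between leukaemias. S-phase calls were then 0 in CMP against MPP, 2 in MEP against CMP, 0 in STHSC:MA9, 5 in MPP:MA9 and 1 in that F test, and the CMP means of the S-phase and mitotic lists were 5.5 and 5.25. After GC and length correction, with or without the replicate block, mitotic calls were 5 in ST-HSC against LT-HSC, 0 in GMP and in MEP against CMP, 3 in GMP against LT-HSC, and 0 between leukaemias by pair and by F test, and S-phase calls were 0 in STHSC:MA9. Without the block, mitotic calls were 2 in STHSC:MA9 and 4 for all leukaemias against GMP, and the S-phase mean of MEP was 6.13. With the block, S-phase calls were 2 in MEP against CMP, and mitotic calls were 1 for all leukaemias against GMP and 4 for change by origin. The replicate block alone gave 0 S-phase calls in STHSC:MA9 and 2 mitotic calls in the F test between leukaemias. A pseudocount of 0.1 gave 2 S-phase calls in STHSC:MA9. Without the filter, mitotic calls were 0 between leukaemia pairs and 0 for change by origin. With only the compared groups fitted, ST-HSC against LT-HSC had 2 mitotic calls. Without replicates 4 and 5 of LT-HSC and ST-HSC, mitotic calls were 19 in ST-HSC and 8 in GMP against LT-HSC. In ST-HSC against LT-HSC 391 of all genes then rose, against 185 with all samples. Without those ST-HSC replicates in the leukaemia fit, chosen after seeing the data, S-phase and mitotic calls were 2 and 2 in STHSC:MA9 and mitotic calls 1 for change by origin.

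With each sample left out in turn, S-phase and mitotic calls ranged from 0 to 1 and 3 to 18 in ST-HSC against LT-HSC, S-phase calls from 0 to 1 in CMP against MPP, and mitotic calls from 0 to 1 in MEP against CMP. In GMP against LT-HSC they ranged from 7 to 13 and 4 to 7. In the leukaemias, S-phase and mitotic calls ranged from 0 to 2 and 0 to 2 in STHSC:MA9, 3 to 14 and 0 to 1 in MPP:MA9, 18 to 21 and 0 to 2 in CMP:MA9, 9 to 16 and 3 to 6 in GMP:MA9, and 13 to 16 and 2 to 4 for all against GMP. They ranged from 0 to 0 and 0 to 3 between pairs, 0 to 1 and 0 to 4 in the F test between leukaemias, and 5 to 12 and 0 to 3 for change by origin.

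Outside ST-HSC against LT-HSC, correlations of the deviations of same-numbered samples lay between -0.374 and 0.31, and no comparison had all of them over 0.1. In GMP against CMP all 5 were positive (0.048 to 0.29), as were the 4 of CMP:MA9 against CMP (0.048 to 0.107). In CMP against MPP all 5 were negative (-0.193 to -0.0473). Whether same-numbered samples shared an experiment was not tested. Depth is known in relative terms only, so no counting interval is given.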
